A study of Bos taurus with 9 samples.

Results

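The genes described here make and use UDP-glucose, build and break down glycogen, or make and break down inositol. They are *UGP2*, *PGM1*, *UGDH*, *GYS2*, *GBE1*, *PYGL*, *ISYNA1* and *MIOX*, 8 of the 28786 genes counted, and were taken by symbol from the table of read counts. *UGP2* and *MIOX* were selected on their measured levels, which were already known to differ between groups of these same cows, so their values are given as a description without a test. The other 6 genes were added for their place in the same routes.

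The study compared lactating Holstein cows kept in 3 environmental conditions. Thermoneutral (TN) cows were kept at a mild temperature, heat stress (HS) cows were kept at a raised temperature, and so at a higher temperature-humidity index, and pair-fed (PF) cows were kept at thermoneutrality but were given only as much feed as the HS cows ate. Each group had 3 cows, and 1 liver biopsy per cow, taken near the end of the treatment, gave 1 RNA-seq library. The 3 groups share the breed and a thermoneutral adaptation period before the treatment, but their average days in milk differed, lowest in TN and highest in PF cows, and the PF group serves as the control for the lower dry matter intake of the HS cows.

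Glucose enters these routes as glucose 6-phosphate. PGM1 turns it into glucose 1-phosphate, UGP2 joins this to UTP to give UDP-glucose, and liver glycogen synthase (GYS2) and the branching enzyme (GBE1) build glycogen from UDP-glucose. The liver phosphorylase (PYGL) takes glucose 1-phosphate off glycogen again. UGDH oxidizes UDP-glucose to UDP-glucuronate, the sugar donor of glucuronidation. ISYNA1 makes inositol phosphate from glucose 6-phosphate, and MIOX opens the inositol ring to give glucuronate, a reaction best known from the kidney.

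Expression is given as CPM, counts scaled to a common library total, after TMM normalization, which sets that total so that the bulk of genes is comparable between libraries. CPM values are not divided by gene length, so levels are compared between cows for the same gene and not between genes. The libraries held 16874444 to 22557047 counts, and 3 counts, the upper limit that a count of 0 allows, were 0.111 to 0.202 CPM. Such limits cover counting error only. Beside the 10 hepatocyte markers, which were detected in every cow, the libraries held hardly any muscle RNA, with at most 0.473 CPM summed over 8 skeletal muscle markers. TN replicate 1 stood apart. Its summed level of hepatocyte markers was 18840 CPM, where the other 8 cows had 61720 to 132800 CPM, and its median correlation with the other libraries was 0.922 (log2 CPM), where the others had 0.951 to 0.966. Single markers of this cow did not all lie low. *ALB*, with 8768 CPM, was the lowest of the TN cows, but *APOA1*, with 842 CPM, was the highest of the TN cows. In bulk tissue, fewer hepatocytes and less RNA per hepatocyte cannot be told apart. The 13 mitochondrial protein-coding genes took 13.6% to 22.2% of the counts in TN libraries, 6.90% to 7.79% in PF libraries and 3.84% to 5.68% in HS libraries.

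*UGP2* was lowest in the TN cows and about equally high in both groups with low feed intake. The TN cows had 33.5, 61.9 and 50.3 CPM in replicates 1, 2 and 3. The PF cows had 114.6, 118.0 and 156 CPM. The HS cows had 105, 106 and 115 CPM. Every PF and HS cow thus lay above every TN cow, while the PF and HS groups overlapped. The group means were 48.6 ± 14.3 CPM for TN, 130 ± 23.1 CPM for PF and 109 ± 5.56 CPM for HS cows (SD, n = 3). Set against TN, the log2 difference was 1.41 (SE 0.31) in PF cows, which is 2.67-fold, and 1.15 (SE 0.26) in HS cows, which is 2.22-fold. Between the HS and PF groups, which overlapped, it was -0.26 (SE 0.24), and whether they differ was not tested. Without TN replicate 1, the library with the lowest sum of hepatocyte markers, the values against TN were 1.21 in PF and 0.95 in HS cows. Because HS and PF cows were set against the same TN cows, these values are not independent of each other. Of the 10 hepatocyte markers, all 10 had a positive log2 fold change in PF and 8 in HS against TN cows, with medians of 0.53 and 0.61, and the part of hepatocyte content in the level of *UGP2* was not tested. The values in each cow are shown in the plot of levels by gene.

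*MIOX* showed another order, with the PF cows high and the TN and HS cows low. The PF cows had 9.18, 12.5 and 40.4 CPM, from 155, 224 and 793 counts. The TN cows had 1.25, 1.85 and 4.35 CPM, from 28, 30 and 73 counts. The HS cows had 3.58, 1.75 and 1.68 CPM, from 97, 30 and 25 counts. Each PF cow was above each cow of the other groups, and the TN and HS cows overlapped. The spread within the PF group was wide, with 20.7 ± 17.2 CPM (SD, n = 3) and the highest level in replicate 3. PF against TN cows had a log2 fold change of 3.07 (SE 0.61), which is 8.38-fold. It was -3.12 (SE 0.56) for HS against PF cows, which is 8.69-fold lower. Between the HS and TN groups it was -0.08 (SE 0.58), and from -0.54 to 0.59 with 1 cow left out. Without PF replicate 3, the log2 fold change was 2.15 for PF against TN and -2.20 for HS against PF cows.

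The study chose *MIOX* as a target for quantitative PCR, and the primers are shown because they mark the stretch of transcript that this second assay read. The values of that assay were not analysed here. Both primers have 20 bases and a GC content of 55.0%, and both are written 5′ to 3′ in lower case:
MIOX forward: tccgaaactacacgtctggc
MIOX reverse: ataggagaagcccccgaact

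Since *MIOX* is best known from kidney tubules, the markers of that tissue were read in the same libraries. Of 8 kidney tubule markers, *SLC22A6*, *SLC22A8* and *UMOD*, which encode tubular anion transporters and uromodulin, had 0 counts in each of the 9 cows. *LRP2* had at most 33 counts in a cow, *AQP2* at most 24, *CUBN* at most 8 and *SLC34A1* at most 4. The summed level of the list was 7.63 to 10.7 CPM in TN, 7.21 to 12.0 CPM in PF and 9.62 to 10.7 CPM in HS cows, and came mostly from *SLC5A2*, a glucose transporter with 101 to 221 counts in every cow. The PF cow with the highest level of *MIOX*, replicate 3, had 11.5 CPM of the list, and PF replicate 1 had 12.0 CPM.

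**Figure D1:**
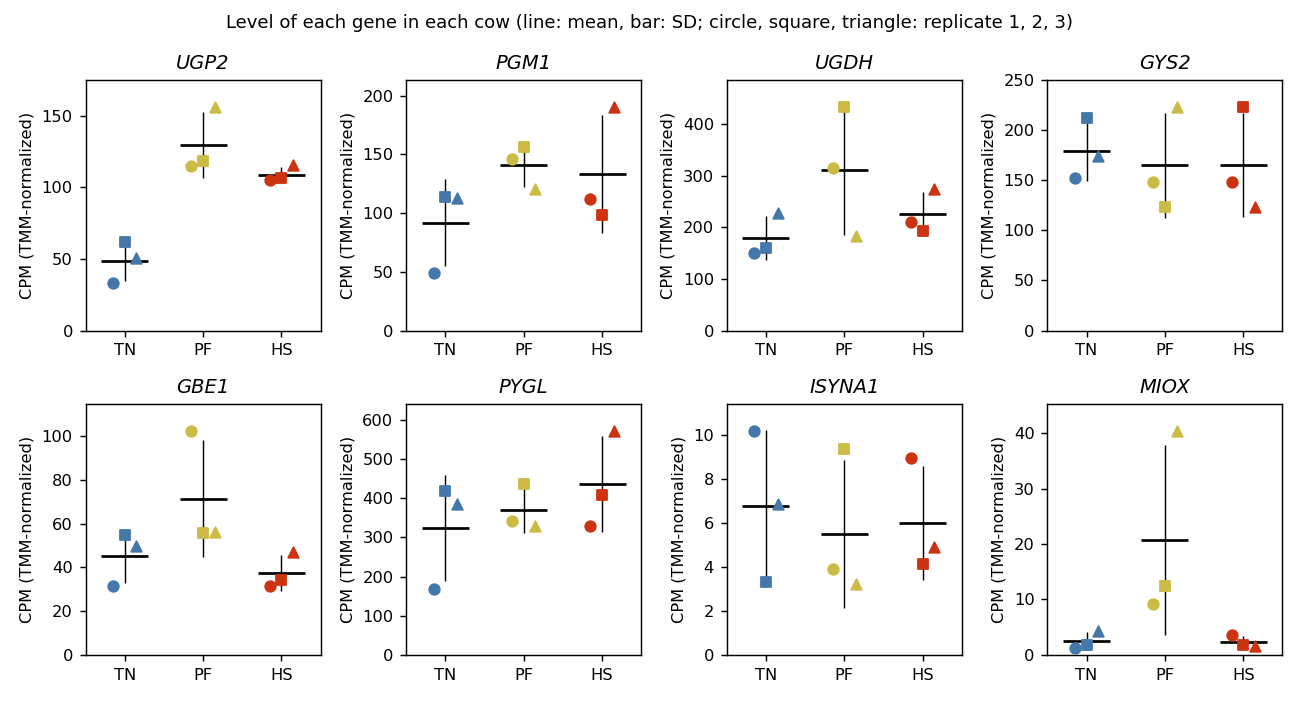
TMM-normalized CPM of the 8 genes in each of the 9 cows, with 1 panel per gene and the groups TN, PF and HS on the horizontal axis. Points are cows, lines are group means and bars are SD (n = 3). In *UGP2* the PF and HS cows lie above 100 CPM and the TN cows below 62 CPM, and in *MIOX* the PF cows lie above all others.

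Of the 6 genes that were tested, none was a DEG between any pair of groups (edgeR, FDR under 0.1 and fold change over 1.5). Over all genes tested these criteria called 0.0892% between HS and TN, 0.0276% between HS and PF and 0.00% between PF and TN cows. At an unadjusted p under 0.05, which 9.36% of all genes reached between HS and TN, 5.32% between HS and PF and 6.88% between PF and TN, *GBE1* passed between HS and PF and the other 5 genes passed in no pair. DESeq2, with calls for 1.75%, 0.771% and 0.555% of genes in these pairs, also called none of the 6. The groups did not overlap for 0 of the 6 genes between HS and TN, 1 between HS and PF and 2 between PF and TN, where the share over all genes was 16.1%, 10.5% and 13.2%. In the test of the 3 groups together, which called 0.0464% of genes and gave 7.86% an unadjusted p under 0.05, *GBE1* alone of the 6 had such a p, and the FDR of the 6 genes ran from 0.573 for *GBE1* to 0.978 for *GYS2* (edgeR).

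Upstream of UDP-glucose, *PGM1* followed the order of *UGP2* in its means but with overlapping cows. It had 49.2, 114 and 113 CPM in TN, 146, 156 and 120 CPM in PF, and 112, 97.9 and 191 CPM in HS replicates 1 to 3. The PF cows all lay above the TN cows, by a small margin between PF replicate 3 and TN replicate 2. PF against TN cows differed by 0.61 on the log2 scale (SE 0.35, FDR 0.709, edgeR), and the value was 0.53 (SE 0.38, FDR 0.645) for HS against TN cows. Without TN replicate 1 these were 0.32 and 0.23, and without HS replicate 3 the value for HS against TN cows was 0.18. Between HS and PF cows it was -0.08 (SE 0.29, FDR 1.00), with a 95% interval of -0.73 to 0.56.

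*UGDH*, which leads UDP-glucose to glucuronidation, was highest on average in the PF cows. The PF cows had 315, 434 and 183 CPM, the TN cows 149.6, 159 and 228 CPM and the HS cows 210.4, 194 and 274 CPM. PF replicate 3 lay within the range of the TN cows, so the groups overlapped. The log2 fold change for PF against TN cows was 0.79 (SE 0.37), with a 95% interval of -0.02 to 1.61, and did not pass (FDR 0.708, edgeR). For HS against TN cows it was 0.32 (SE 0.30, FDR 0.716, edgeR) and for HS against PF cows -0.46 (SE 0.33, FDR 1.00). With 1 cow left out it ranged from 0.48, without PF replicate 2, to 1.08, without PF replicate 3, for PF against TN cows. PF replicate 3 was thus the PF cow with the most *MIOX* and the least *UGDH*.

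*GYS2*, the liver glycogen synthase, was at nearly the same mean level in the 3 groups. The means were 180 ± 30.0 CPM in TN, 165.0 ± 52.3 CPM in PF and 165.0 ± 51.8 CPM in HS cows (SD, n = 3). Single cows ranged from 123.0 CPM in PF replicate 2 to 224 CPM in PF replicate 3, so that the spread within the PF group covered the values of all other cows. The log2 fold changes were -0.14 (SE 0.30) for HS against TN, -0.12 (SE 0.32) for PF against TN and 0.00 (SE 0.32) for HS against PF cows, with FDRs of 0.892, 0.929 and 1.00 (edgeR). The 95% intervals reached from -0.82 to 0.54, from -0.83 to 0.59 and from -0.70 to 0.69.

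*GBE1*, which adds the branches to glycogen, had the smallest unadjusted p of the 6 genes. The PF cows had 102, 55.6 and 56.2 CPM, the HS cows 31.7, 34.03 and 47.1 CPM and the TN cows 31.4, 55.0 and 49.7 CPM. Every PF cow was above every HS cow and every TN cow, but PF replicate 2 and TN replicate 2 were almost equal. HS against PF cows differed by a log2 fold change of -0.93 (SE 0.29), with a 95% interval of -1.58 to -0.29 and an FDR of 0.642 (edgeR). It did not pass the adjustment over all genes. Without PF replicate 1, the cow with 102 CPM, it was -0.58 (SE 0.25, FDR 1.00, edgeR). For PF against TN cows it was 0.65 (SE 0.33, FDR 0.709, edgeR), which became 0.30 without PF replicate 1. For HS against TN cows it was -0.28 (SE 0.26, FDR 0.721, edgeR).

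*PYGL*, the liver phosphorylase, had a level that moved mainly with 2 cows. TN replicate 1 had 167 CPM and HS replicate 3 had 571 CPM, while the other 7 cows had 329 to 435 CPM. The log2 fold change was 0.42 (SE 0.41, FDR 0.729, edgeR) for HS against TN, 0.19 (SE 0.38, FDR 0.907) for PF against TN and 0.24 (SE 0.29, FDR 1.00) for HS against PF cows. Without TN replicate 1 the value for PF against TN cows turned to -0.12, and that for HS against TN cows was 0.12. Without HS replicate 3 the value for HS against PF cows was -0.0018. HS replicate 3 also had the largest sum of hepatocyte markers, 132800 CPM, and TN replicate 1 the smallest. Single markers of HS replicate 3 did not all lie high. *ALB*, with 81430 CPM, was the highest of the HS cows, but *APOA1*, with 350 CPM, was the lowest of the HS cows. The part of the hepatocyte markers in the level of *PYGL* was not tested.

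*ISYNA1*, the enzyme that starts inositol synthesis, was low in all groups and varied more within them than between them. It had 10.2, 3.33 and 6.86 CPM in TN, 3.91, 9.39 and 3.21 CPM in PF, and 8.97, 4.15 and 4.91 CPM in HS replicates 1 to 3. The highest cow of each group was near 10 CPM and the lowest under 5 CPM, so all groups overlapped. The log2 fold changes were -0.20 (SE 0.45, FDR 0.897, edgeR) for HS against TN, -0.31 (SE 0.50, FDR 0.871) for PF against TN and 0.13 (SE 0.46, FDR 1.00) for HS against PF cows, and their direction turned with 1 cow left out. *ISYNA1* and *MIOX* stand at the start and the end of the inositol route. PF replicate 3 had the highest *MIOX* and the lowest *ISYNA1* of the 9 cows, but its *ISYNA1* was almost equal to that of TN replicate 2.

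**Figure D2:**
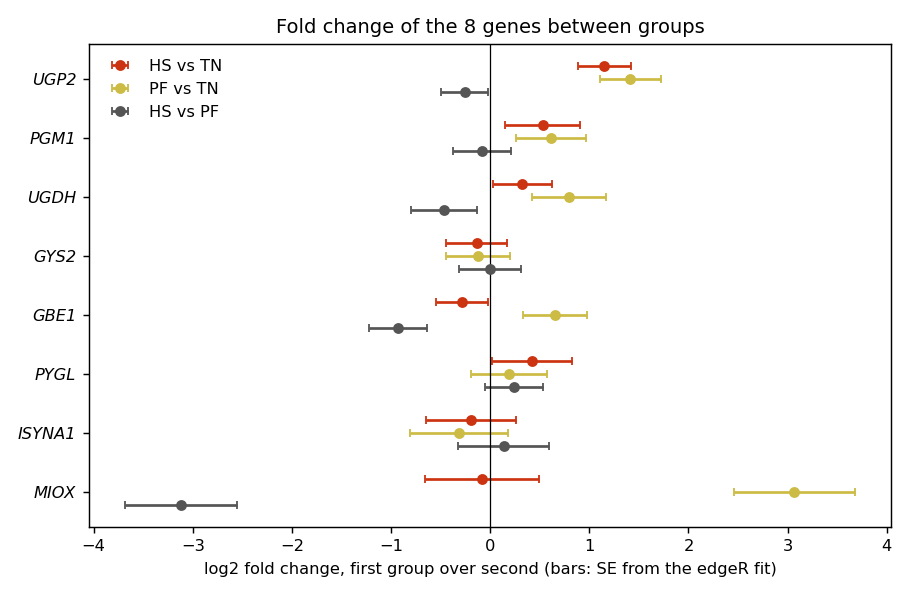
log2 fold change of the 8 genes for HS against TN, PF against TN and HS against PF cows, with the SE of the edgeR fit as bars. *MIOX* lies at 3.07 for PF against TN and at -3.12 for HS against PF cows, *UGP2* at 1.41 and 1.15 against the TN cows, and the other genes lie between -0.93 and 0.79.

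The balance of synthase and phosphorylase within a cow does not depend on library scaling. The *GYS2* counts were 91.1%, 50.6% and 45.3% of the *PYGL* counts in TN replicates 1, 2 and 3. They were 43.5%, 28.2% and 67.9% in the PF cows and 44.9%, 54.8% and 21.6% in the HS cows. These are ratios of counts, not of transcripts per length, and only their differences between cows are read. The log2 ratio was -0.753 ± 0.542 for TN, -1.19 ± 0.633 for PF and -1.41 ± 0.706 for HS cows (SD, n = 3), and the groups overlapped. The difference was -0.657 for HS against TN (exact two-sided permutation test, p = 0.4), -0.442 for PF against TN (exact permutation p = 0.4) and -0.215 for HS against PF cows (exact permutation p = 0.7). With 3 cows on each side, 0.1 is the smallest p this test can reach. TN replicate 1 had the highest ratio and the lowest sum of hepatocyte markers. Without this cow the differences from the TN group were -0.348 in HS and -0.133 in PF cows. Without PF replicate 3 or without HS replicate 3 the difference between HS and PF cows turned to 0.103 and 0.184.

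**Figure D3:**
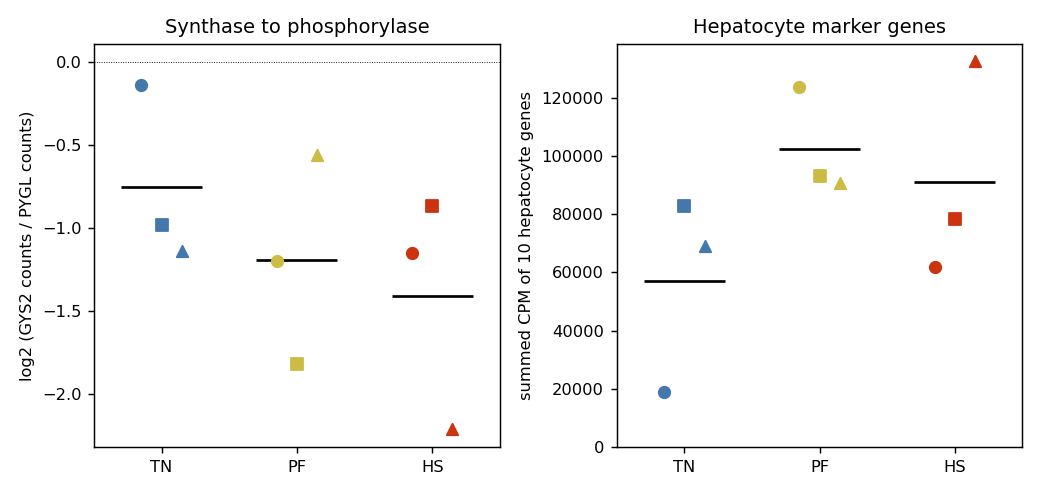
Left, log2 ratio of *GYS2* to *PYGL* counts in each cow by group. Right, summed CPM of 10 hepatocyte markers in the same cows. Points are cows and lines are group means (n = 3). TN replicate 1 (circle) has the highest ratio, 91.1% as a share of counts, and the lowest marker sum, 18840 CPM, and HS replicate 3 (triangle) has the lowest ratio and the highest marker sum. Single markers of these cows did not all follow the sum.

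Beside the 8 genes, 66 other genes of the same routes were found in the counts. They cover the rest of glycogen synthesis and breakdown, the regulators of both, UDP-sugars, glucuronate and ascorbate, and inositol. Of these, 61 had enough counts to be tested between HS and TN, 58 between HS and PF and 60 between PF and TN cows. None was a DEG by edgeR in any pair, and the smallest FDRs were 0.417, 0.526 and 0.577. At an unadjusted p under 0.05, 3 were higher and 2 lower in HS than in TN cows, where 4.13% and 5.23% of all genes tested were. Between HS and PF cows 2 were higher and 1 lower in HS, where 3.07% and 2.25% of all genes were. Between PF and TN cows 5 were higher and 2 lower in PF, where 2.99% and 3.89% of all genes were. The share of the list was 8.20%, 5.17% and 11.7% in these pairs, against 9.36%, 5.32% and 6.88% of all genes, so that it was near the background in both comparisons with the HS cows. The groups did not overlap for 11 of the 61, 9 of the 58 and 18 of the 60 genes, where the share over all genes was 16.1%, 10.5% and 13.2%. The median log2 fold change was 0.06 for HS against TN, -0.11 for HS against PF and 0.17 for PF against TN cows, beside -0.0082, 0.0069 and -0.01 over all genes. For PF against TN cows the number with an unadjusted p under 0.05 was 3 without TN replicate 1 or PF replicate 2, 4 without PF replicate 1, and 11 without TN replicate 2.

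Among the genes of glycogen synthesis, *STBD1*, which encodes a protein that binds glycogen and anchors it to membranes, was, like *UGP2*, lowest in the TN cows, but its mean was higher in HS than in PF cows. It had 30.8, 116 and 107 CPM in TN, 176, 157 and 160.3 CPM in PF, and 152, 186 and 227 CPM in HS cows, so every PF and HS cow lay above every TN cow. On the log2 scale HS cows differed from TN by 1.15 (SE 0.44, FDR 0.487, edgeR) and PF cows by 0.96 (SE 0.43, FDR 0.708). Without TN replicate 1 these were 0.75 (SE 0.27) and 0.56 (SE 0.24). *EPM2A*, which encodes the glycogen phosphatase laforin, was low, with 0.761, 2.35 and 2.27 CPM in TN, 3.37, 3.69 and 5.66 CPM in PF, and 3.06, 3.45 and 5.25 CPM in HS cows, so that both groups lay above all TN cows. Relative to TN its log2 fold change was 1.25 (SE 0.53, FDR 0.708, edgeR) in PF and 1.124 (SE 0.51, FDR 0.522) in HS cows, and 0.88 and 0.76 without TN replicate 1. *GYS1*, the muscle form of glycogen synthase, had the opposite direction, with 16.8, 8.15 and 12.3 CPM in TN and 7.99, 6.03 and 8.10 CPM in PF cows (log2 fold change -0.76, SE 0.32, FDR 0.708, edgeR).

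*HK3*, a hexokinase of myeloid cells, was lowest in the PF cows. They had 3.49, 5.14 and 5.96 CPM, the TN cows 8.95, 13.9 and 15.4 CPM and the HS cows 8.23, 10.99 and 13.7 CPM, so that the PF group overlapped neither of the others. Its log2 fold change was -1.39 (SE 0.33, FDR 0.577, edgeR) for PF against TN and 1.16 (SE 0.32, FDR 0.526) for HS against PF cows. DESeq2 called it for PF against TN cows (FDR 0.0942), the only call it made among the 66 genes. The unadjusted p stayed under 0.05 in all 6 fits that left out 1 cow of either pair. The 6 Kupffer cell markers, all detected in every cow, summed to 964 to 1630 CPM in PF, 1169 to 2681 CPM in TN and 1708 to 3020 CPM in HS cows. Between HS and PF cows 5 of the 6 markers had an unadjusted p under 0.05, all of them higher in HS cows, where 3.07% of all genes were, with a median log2 fold change of 0.85. Between PF and TN cows 0 of the 6 had such a p (edgeR), where 6.88% of all genes had, and their median log2 fold change was -0.44. The part of these cells in the level of *HK3* was not tested.

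Of 5 genes for subunits of phosphorylase kinase, which activates phosphorylase, 2 had an unadjusted p under 0.05 between HS and TN cows. Over all genes tested 9.36% had such a p, and 5.23% had it with the lower level in HS cows. *PHKB* had 15.1, 12.5 and 16.4 CPM in HS and 24.3, 22.1 and 22.7 CPM in TN cows (log2 fold change -0.67, SE 0.21, FDR 0.417, edgeR). *PHKG2*, the catalytic subunit of the liver, had 3.99, 5.67 and 4.58 CPM in HS and 10.1, 6.79 and 9.06 CPM in TN cows (log2 fold change -0.89, SE 0.30, FDR 0.456, edgeR). The groups did not overlap for either gene, where the share over all genes was 16.1%. For both genes the unadjusted p stayed under 0.05 in all 6 fits that left out 1 cow. Neither gene passed the adjustment. *PHKG2* also did not overlap between PF and TN cows, with 5.98, 5.59 and 6.22 CPM in PF cows (log2 fold change -0.55, SE 0.30, FDR 0.709, edgeR). The HS and TN groups overlapped for the other 3 subunit genes, whose log2 fold changes were 0.08 for *PHKA1* (SE 0.31), -0.27 for *PHKA2* (SE 0.26) and -0.75 for *PHKG1* (SE 0.49). *PPP1R3D*, which directs protein phosphatase 1 to glycogen, had 2.91, 4.76 and 3.58 CPM in TN, 9.23, 9.05 and 5.91 CPM in PF, and 7.57, 7.89 and 5.85 CPM in HS cows. Relative to TN its log2 fold change was 1.10 (SE 0.36, FDR 0.697, edgeR) in PF and 0.91 (SE 0.32, FDR 0.462) in HS cows, and both groups lay above all TN cows.

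Apart from *SLC5A3*, the other partners and paralogs reported here had an unadjusted p above 0.05 in each pair in which they were tested. *GYG1*, the glycogenin that primes glycogen, ranged from 6.04 to 12.7 CPM over the 9 cows. *G6PC*, which encodes the phosphatase that releases free glucose, had 303, 471 and 369 CPM in TN and 138, 253 and 381 CPM in HS cows (HS against TN, log2 fold change -0.58, SE 0.40, FDR 0.636, edgeR). *PYGM*, the muscle phosphorylase, had 0 to 20 counts and was too low to be tested, and *PYGB*, the brain form, ranged from 8.21 to 21.1 CPM. *PGM2*, a paralog of *PGM1*, ranged from 1.99 to 4.97 CPM.

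Past UDP-glucose, *GALT*, which exchanges UDP-glucose and galactose 1-phosphate, had 24.7, 25.8 and 29.9 CPM in HS and 37.9, 43.5 and 52.6 CPM in PF cows. Its log2 fold change was -0.74 (SE 0.22, FDR 0.614, edgeR), and the groups did not overlap. *SLC35A2*, which carries UDP-galactose into the Golgi, had 8.70, 12.9 and 12.3 CPM in PF and 5.32, 8.52 and 6.68 CPM in TN cows (log2 fold change 0.72, SE 0.31, FDR 0.708, edgeR). Of the 7 genes in the list of glucuronate and ascorbate, 0 had an unadjusted p under 0.05 in any pair (edgeR). Over all genes the share was 9.36% between HS and TN, 5.32% between HS and PF and 6.88% between PF and TN cows. The list is not limited to the route from glucuronate to ascorbate, which the bovine liver completes. *GULO*, the last enzyme of that route, had 137, 498 and 566 CPM in TN, 309.8, 411 and 368 CPM in PF, and 327, 332 and 462 CPM in HS cows, and its low value in TN replicate 1 was outside the range of the other 8 cows. *RGN*, which forms the lactone before it, ranged from 574 to 1702 CPM, with the lowest value again in TN replicate 1. *AKR1A1*, which reduces glucuronate, ranged from 76.9 CPM in the same cow to 236 CPM.

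In the inositol list, *SLC5A3*, the sodium-coupled transporter that takes up myo-inositol, was highest in the HS cows. They had 17.3, 9.65 and 10.1 CPM, where the TN cows had 4.92, 8.59 and 6.02 CPM and the PF cows 7.16, 5.59 and 6.78 CPM. Each HS cow was above each cow of the other groups. Its log2 fold change was 0.92 (SE 0.33, FDR 0.465, edgeR) against TN and 0.92 (SE 0.31, FDR 0.669) against PF cows, and 0.00 (SE 0.33) for PF against TN cows. With 1 cow left out, its unadjusted p stayed under 0.05 in 3 of 6 fits against TN and in 5 of 6 against PF cows. *IPMK*, an inositol phosphate kinase, had 13.3, 8.21 and 6.27 CPM in PF and 5.55, 5.62 and 4.77 CPM in TN cows (log2 fold change 0.80, SE 0.35, FDR 0.708, edgeR). *IMPA1*, which frees inositol from its phosphate, had 90.8, 79.5 and 78.0 CPM in PF and 182, 109 and 99.3 CPM in TN cows (log2 fold change -0.66, SE 0.31, FDR 0.708, edgeR). *IMPA2*, its paralog, ranged from 25.1 to 69.1 CPM over the 9 cows, with log2 fold changes of 0.09 for HS and 0.25 for PF when set against TN. For PF against TN cows the unadjusted p stayed under 0.05 with 1 cow left out in 3 of 6 fits for *EPM2A* and *STBD1*, 2 of 6 for *IPMK* and *SLC35A2* and 1 of 6 for *GYS1*.

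**Figure D4:**
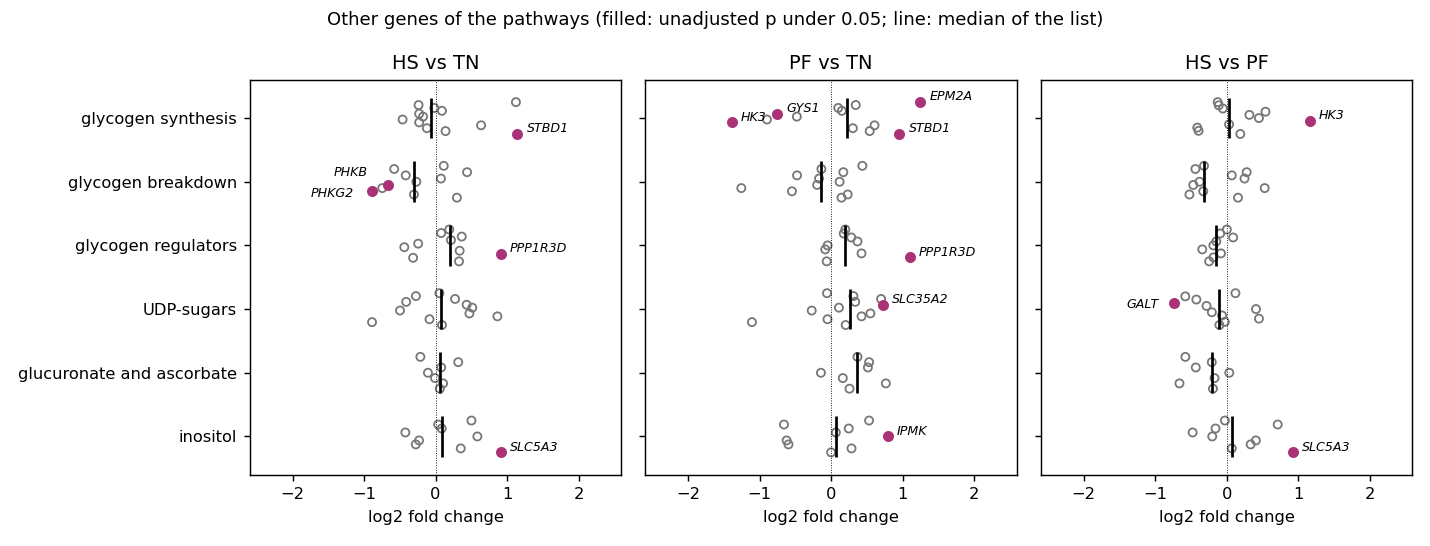
log2 fold change of the other genes of the routes, by list, for HS against TN, PF against TN and HS against PF cows. Each circle is a gene, filled and named at an unadjusted p under 0.05 (edgeR), and the line is the median of the list. Filled circles number 5 of 61, 7 of 60 and 3 of 58, and none had an FDR under 0.1.

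The genes whose levels were most like those of *UGP2* and *MIOX* were looked up over the 9 cows among 13557 genes with a mean of at least 1 CPM. The likeness is Pearson's r of log2 CPM over 9 cows of 3 groups, given as a description. As the genes were picked for this likeness in the same cows, a like order of the groups follows from the choice. For *UGP2* the closest were *KCNMA1* and *GAREM1* (r = 0.951 for both), *PEX11A* (r = 0.949), *LOC101906383* (r = 0.948) and *SH3BP5L* (r = 0.948). *KCNMA1*, a potassium channel gene, had 24.6 to 30.1 CPM in TN, 37.2 to 50.0 CPM in PF and 40.3 to 46.5 CPM in HS cows. *PEX11A*, a gene of peroxisome division, had 1.70 to 3.21 CPM in TN, 5.31 to 6.16 CPM in PF and 5.28 to 6.59 CPM in HS cows. For *MIOX* the closest were *LOC101908208* (r = 0.905), *USP13* (r = 0.897), *ISM1* (r = 0.893), *BREH1* (r = 0.892) and *CRY1* (r = 0.883). *BREH1*, named as a retinyl ester hydrolase, had 145 to 475 CPM in PF, 64.8 to 139 CPM in TN and 24.6 to 65.7 CPM in HS cows. *CRY1*, a repressor of the circadian clock, had 11.7 to 12.8 CPM in PF, 7.47 to 8.09 CPM in TN and 6.02 to 8.57 CPM in HS cows. None of the other 7 genes described here was among the closest to *UGP2* or *MIOX*.

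Each of the 8 symbols was found among the protein-coding genes of RefSeq on ARS-UCD2.0. Whether a symbol occurs there more than once was not checked. As the alignment used ARS-UCD1.2, no positions are given. There *PYGL* overlaps *ABHD12B* and *LOC107132849*, *GBE1* overlaps a pseudogene and *PGM1* a tRNA gene, while *UGP2*, *UGDH*, *GYS2*, *ISYNA1* and *MIOX* overlap no annotated gene. Since the strand setting of the counting is not given in the sources used here, reads of *PYGL* and of the genes it overlaps may not be fully told apart.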

How the data were processed

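The values are the authors' raw read counts per gene, deposited without normalization for 9 liver libraries, and all 9 columns were mapped by their labels. According to the methods, reads were filtered with fastp 0.23.2, aligned to ARS-UCD1.2 with STAR 2.7.9a (at most 3 mismatches) and counted with featureCounts 2.0.3. The annotation release and the strand and multi-mapping settings are not given in the sources used here.

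Pairwise tests used the 6 libraries of both groups and edgeR 4.0.16 (R 4.3.3), with TMM scaling, filterByExpr, the quasi-likelihood F test and Benjamini-Hochberg adjustment over all genes tested. Genes with a fold change over 1.5 at an FDR under 0.1 were taken as DEGs. For the 3-group test all 9 libraries entered. The SE is the absolute log2 fold change divided by the square root of the F statistic of the fit. Intervals are 95% intervals from this SE and a t quantile. For *UGP2* and *MIOX* the SE comes from the same fit and is not the spread between cows. As both genes were selected for their differences, it is given as a description and is not to be read as a test. The ratio of *GYS2* to *PYGL* was taken on counts with a pseudocount of 0.5 and compared by exact permutation. Likeness used log2(CPM + 0.5). Of these steps, the pairwise edgeR test was first tried on simulated counts.

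The genes named are the 8 genes, the other genes of the routes with an unadjusted p under 0.05 in a pair or that are a paralog or direct partner, and the 5 genes most like *UGP2* and *MIOX*. Of the direct partners, 2 are not reported here. *ABHD12B* and *LOC107132849* were added after the annotation was read, and *PHKA1*, *PHKA2* and *PHKG1* after their values were seen. Members, lists and tests were chosen with earlier results of these data known. Alternatives were DESeq2 1.42.0, RLE size factors, mitochondrial genes left out, no filter, 1 fit over all libraries, a replicate block and each cow left out; for the ratio, a pseudocount of 5 and CPM. p-values measure the spread between cows with 1 library each. RefSeq symbols of ARS-UCD2.0 matched 24366 of 28786 genes. Raw reads, quantitative PCR and clinical measurements were not analysed here.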

Additional observations from a re-analysis of the deposited data

How the results depend on the processing

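None of the 6 tested genes became a DEG under any alternative. Of their 216 values under alternatives, 195 kept their direction, and the 21 that turned had small log2 fold changes. For HS against PF cows *GYS2* turned to 6.8e-05 without mitochondrial genes, 0.0038 without the filter and 2.7e-05 with all libraries in 1 fit. With 1 cow left out, log2 fold changes that turned ranged as follows. *GYS2* ranged from -0.41 to 0.034 for HS against TN, from -0.28 to 0.28 for HS against PF and from -0.40 to 0.051 for PF against TN cows. *ISYNA1* ranged from -0.61 to 0.24, from -0.30 to 0.76 and from -0.94 to 0.12 in these pairs. *PGM1* ranged from -0.43 to 0.10 and *PYGL* from -0.0018 to 0.39 for HS against PF cows, and *PYGL* from -0.12 to 0.42 for PF against TN cows. The *GYS2* to *PYGL* ratio ranged from -0.53 to 0.184 for HS against PF cows.

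*UGP2* ranged from 0.95 to 1.37 in HS and from 1.21 to 1.63 in PF against TN cows, and *MIOX* from 2.15 to 3.75 for PF against TN cows, over all alternatives.

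The number of DEGs over all genes moved most with DESeq2 or without the filter on low counts. For HS against TN cows it was 13, and 270 with DESeq2, 124 without the filter, 4 with all libraries in 1 fit and 0 to 39 with 1 cow left out. For HS against PF cows it was 4, and 122 with DESeq2, 98 without the filter, 8 with RLE or without mitochondrial genes and 5 to 10 with 1 cow left out. For PF against TN cows it was 0 (1003 genes with an unadjusted p under 0.05), and 91 with DESeq2, 136 without the filter and 0 to 14 with 1 cow left out. The 3-group test gave 7, and 291 with DESeq2, 212 without the filter and 2 to 47 with 1 cow left out. The other genes of the routes with an unadjusted p under 0.05 numbered 3 to 10, 2 to 10 and 3 to 11 with 1 cow left out for HS against TN, HS against PF and PF against TN cows, and 5 with DESeq2 for HS against PF cows. Without TN replicate 2 the DEGs were 39 for HS against TN, 14 for PF against TN and 47 for the 3 groups, and without HS replicate 2 they were 0 for HS against TN cows. The cause of these shifts was not tested.

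The paper describes PF intake as matched to HS counterparts, but whether the replicate numbers carry that match is not given. Same-numbered cows deviated together with r from -0.218 to 0.241, and not every cow correlated best with its own number. With so few cows these values cannot decide whether the numbers pair the cows, and the main tests were made without pairing. With the replicate block the DEGs were 33 for HS against TN and 1 for PF against TN cows.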
